A study of Mus musculus with 14 samples.

Results

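The SMAD4 sites of unstimulated muscle stem cells (MuSCs) were set beside the sites of phosphorylated SMADs in cells stimulated with BMP6 for 1 h. Vehicle-treated and BMP6-stimulated cells were separate samples, both kept for 1 h, so no site was followed over time. Members were the 8577 CUT&Tag peaks of SMAD4 in vehicle-treated cells, among 175565 peaks in the 6 lists of the series, and each was asked whether it overlapped, by at least 1 bp, a peak of phosphorylated SMAD1, SMAD5 and SMAD9 (pSMAD1/5/9) in BMP6-stimulated cells. The second list holds 7339 peaks. A member carried the pSMAD1/5/9 signal of BMP6-stimulated cells in 4385 cases, 51.1% of the list (95% interval 50.1 to 52.2), and in 4192 cases it did not. The members were then compared by SMAD4 signal, by position relative to transcription start sites (TSSs), by gene and by sequence.

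The cells came from female mice aged 9 weeks of the genotype C57BL/6N(Tg(Pax7-EGFP)Tajb), in which the promoter of Pax7, the marker of MuSCs, drives a green fluorescent protein that was used for sorting. Both groups were cultured, starved for 6 h with 200 ng/mL soluble BMPR1A, which captures BMP ligands in the medium, and then kept for 1 h with 100 ng/mL BMP6 or with vehicle, 4 mM HCl with 0.1% BSA. Each library was made from 100000 cells after a light fixation (2 min, 0.1% formaldehyde). Of the 14 libraries, 2 of SMAD4 with vehicle and 2 of pSMAD1/5/9 with BMP6 lie behind both lists. In this assay, an antibody directs the transposase Tn5 to its target on chromatin, and the tagged fragments pile up as peaks.

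BMP ligands bind type I and type II receptors, which phosphorylate SMAD1, SMAD5 and SMAD9. These receptor SMADs then enter the nucleus with SMAD4, the partner that they share with the SMADs of the TGF-beta branch, and bind DNA at short GC-rich sites and at CAGAC boxes. In MuSCs, BMP signaling is known for keeping activated cells in proliferation and delaying their differentiation, and Id genes are the classical early targets.

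The series deposited 1 consensus list per antibody and condition, in which a peak had to be found in both biological replicates at an irreproducible discovery rate (IDR) of at most 0.05. Each peak has 1 signal value per replicate, and the signal used here is their sum. The values are a score of the peak caller without a stated unit, so signal is given as a rank within its list, where rank 1 is the strongest. Spearman's rank correlation between the replicate columns was 0.767 for vehicle SMAD4 and 0.713 for BMP6 pSMAD1/5/9. Per the study's methods, reads were subsampled to the same depth for each antibody, but read counts are not part of the lists and the number of reads behind a peak is unknown. Intervals are 95% Wilson intervals for shares and Newcombe intervals for differences. They cover counting error over peaks, not the error between replicates, and a difference is called when its interval leaves out 0. Peaks of 1 list are not independent replicates, and no p-value is given across them.

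The label of the cells was compared with marker genes through H3K27ac, a mark of active promoters and enhancers, in the vehicle libraries. A H3K27ac peak at the TSS was found for 8 of 9 MuSC markers (not Calcr) and for 6 of 6 markers of differentiating myotubes. It was found for 2 of 6 fibro-adipogenic markers (Col1a1 and Col3a1, not Pdgfra), 1 of 5 endothelial markers (Tek, not Pecam1), 2 of 5 immune markers (Cd68 and Csf1r, not Ptprc), and 1 of 4 markers of pericytes and smooth muscle (Acta2). Among all 21603 protein-coding genes on the autosomes and X, 11533 had such a peak.

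Sequence at the summits is shown for a few peaks chosen by rank, as examples and not as typical members. Repeats occur among them, but windows of low sequence complexity, counted at the end, were rare over the list. They made up 0.410% of members with and 1.93% of members without pSMAD1/5/9. Each window has 120 bases around the summit, read from the plus strand of GRCm39, and capitals mark the SMAD box CAGAC, the GC-rich SMAD site GGAGCC or GGCGCC, and the palindrome GTCTAGAC, on either strand. The first windows belong to the 3 strongest members, which all carried pSMAD1/5/9 after BMP6.
Arrdc3, chr13:81033745-81033864: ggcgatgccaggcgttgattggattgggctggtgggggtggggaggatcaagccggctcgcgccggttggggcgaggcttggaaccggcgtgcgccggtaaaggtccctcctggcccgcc
Skil, chr3:31148734-31148853: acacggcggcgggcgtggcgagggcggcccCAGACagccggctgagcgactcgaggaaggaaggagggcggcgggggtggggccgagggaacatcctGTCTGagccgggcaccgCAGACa
Dpcd, chr19:45536812-45536931: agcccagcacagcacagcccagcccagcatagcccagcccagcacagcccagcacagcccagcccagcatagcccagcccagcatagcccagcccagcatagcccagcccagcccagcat
The window at the TSS of Skil, which encodes the SMAD corepressor SnoN, held 3 SMAD boxes. The other windows held none of the marked motifs, and the window 12152 bp upstream of Dpcd is a tandem repeat of short words.

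The next windows belong to 2 of the strongest members without pSMAD1/5/9, of ranks 74 and 111. They show sequence at strong SMAD4 peaks that did not carry pSMAD1/5/9 after BMP6.
Plk5, chr10:80197992-80198111: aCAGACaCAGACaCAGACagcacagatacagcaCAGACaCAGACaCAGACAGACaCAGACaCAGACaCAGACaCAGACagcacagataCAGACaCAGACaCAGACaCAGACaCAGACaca
Ppp2r2c, chr5:37072774-37072893: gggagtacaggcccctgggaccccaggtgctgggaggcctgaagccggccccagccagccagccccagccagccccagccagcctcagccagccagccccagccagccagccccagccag
The window in an exon of Plk5 is a tandem repeat throughout and held 16 SMAD boxes, and the one in an intron of Ppp2r2c ends in a repeat and held none.

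The following windows lie at the 3 strongest pSMAD1/5/9 peaks whose best vehicle SMAD4 peak ranked below the median of its list, again at the SMAD4 summit.
Cibar2, chr8:120992227-120992346: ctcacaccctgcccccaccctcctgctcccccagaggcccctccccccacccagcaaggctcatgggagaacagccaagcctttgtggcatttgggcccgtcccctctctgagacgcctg
Prps1, chrX:139421227-139421346: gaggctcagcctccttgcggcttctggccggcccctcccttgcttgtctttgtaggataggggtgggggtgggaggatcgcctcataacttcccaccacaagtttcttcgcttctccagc
Acta1, chr8:124622809-124622928: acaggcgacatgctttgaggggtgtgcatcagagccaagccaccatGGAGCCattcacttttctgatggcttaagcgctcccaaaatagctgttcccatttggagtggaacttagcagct
Among these, the promoter window of Acta1, the gene of skeletal muscle actin, held the only marked site, 1 GC-rich SMAD site.

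The last windows are centred on the 3 strongest pSMAD1/5/9 peaks that had no vehicle SMAD4 peak at all.
Timp1, chrX:20736225-20736344: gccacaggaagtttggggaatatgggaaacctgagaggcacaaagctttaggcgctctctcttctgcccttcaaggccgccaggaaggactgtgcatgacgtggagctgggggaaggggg
Olfml2b, chr1:170529898-170530017: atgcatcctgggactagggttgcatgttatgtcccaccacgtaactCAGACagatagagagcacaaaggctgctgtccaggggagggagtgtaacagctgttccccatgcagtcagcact
Id1, chr2:152581070-152581189: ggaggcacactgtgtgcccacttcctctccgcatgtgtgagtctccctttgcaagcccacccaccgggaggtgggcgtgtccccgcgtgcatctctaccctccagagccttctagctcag
The first lies at the TSS of Timp1, an inhibitor of matrix metalloproteinases, and the last 2965 bp downstream of the TSS of Id1, an inhibitor of basic helix-loop-helix factors. Only the window near Olfml2b held a SMAD box.

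The share of members with pSMAD1/5/9 fell down the SMAD4 ranking. In the strongest decile, 807 of 858 peaks (94.1%, 92.3 to 95.5) carried it, and in the weakest decile 146 of 857 (17.0%, 14.7 to 19.7). The difference was 77.0 percentage points (73.8 to 79.8). From the second to the ninth decile, the shares were 83.1%, 70.5%, 60.7%, 53.5%, 41.5%, 37.3%, 27.7% and 25.8%. Of the 9 steps between neighbouring deciles, the intervals of 7 left out 0. The sixth and the seventh decile differed by 4.15 points (−0.472 to 8.75), and the eighth and the ninth by 1.98 points (−2.21 to 6.16). At the extremes, 96 of the 100 strongest members and 14 of the 100 weakest carried pSMAD1/5/9. The fall was not particular to SMAD4 with vehicle. Among the 12860 SMAD4 peaks after BMP6, the share ran from 92.4% in the strongest to 9.56% in the weakest decile of their signal. It also differed by IDR, with 75.3% (73.9 to 76.7) of the 3575 members at an IDR of at most 0.01 and 33.8% (32.5 to 35.1) of the 5002 others.

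Ranking by 1 replicate column, with the extent of each SMAD4 peak also taken from that replicate, gave the same course. With the first column alone, the shares ran from 93.4% in the strongest to 18.1% in the weakest decile, and with the second column from 92.4% to 19.7%. Of the 599 peaks that stood in the strongest decile by both columns, 95.3% (93.3 to 96.7) carried pSMAD1/5/9, and of the 330 in the weakest decile by both, 14.8% (11.4 to 19.1).

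Width moved with the ranking. The rank correlation between signal and width was 0.767 among the members, and the median width was 930 bp in the strongest decile and 288 bp in the weakest, so that a strong peak has more bases to overlap with. When both lists were cut to windows of 200 bp at the summits, the shares ran from 77.9% in the strongest to 11.2% in the weakest decile. With the summit of the SMAD4 peak required to lie within a pSMAD1/5/9 peak, they ran from 92.4% to 15.3%.

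**Figure D1:**
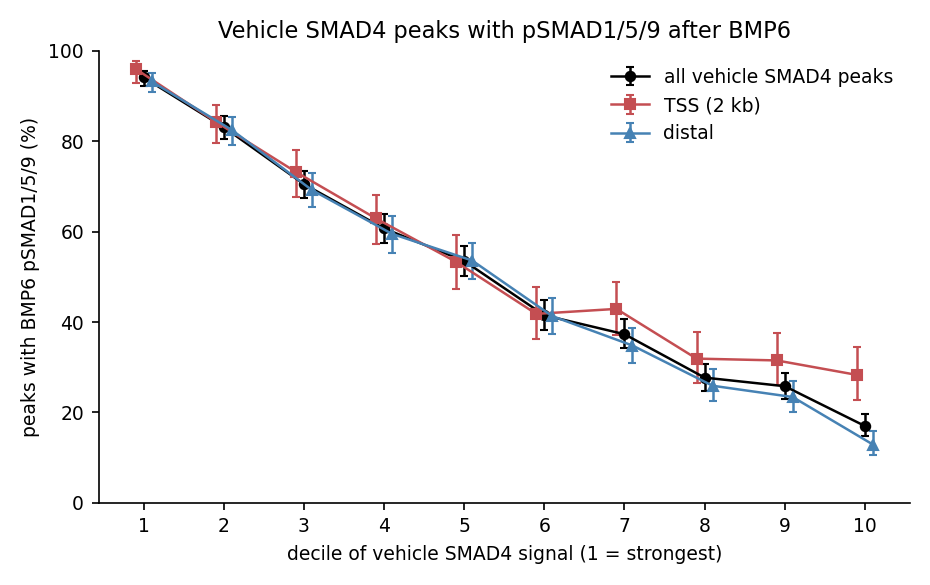
Share of vehicle SMAD4 peaks that overlapped a BMP6 pSMAD1/5/9 peak (y, percent) in deciles of vehicle SMAD4 signal (x, 1 is the strongest), for all peaks, peaks within 2 kb of a TSS and distal peaks, with 95% Wilson intervals. The share of all peaks falls from 94.1% to 17.0%, and TSS peaks lie above distal peaks in the weakest decile (28.3% against 12.9%).

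As a single number for this ranking, the area under the receiver operating characteristic curve (AUC) was 0.781. It is the chance that a member with pSMAD1/5/9 has a higher signal than a member without, and 0.5 would mean no relation. Other features of the same peaks ordered them less well. The AUC was 0.714 for peak width, 0.689 for signal divided by width, 0.676 for the signal of the H3K27ac peak around it, 0.597 for the number of other vehicle SMAD4 peaks within 10 kb and 0.540 for closeness to a TSS. By either replicate column of SMAD4 the AUC was 0.768 and 0.762. These are descriptions of 1 pair of lists, without a test between them.

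Members at TSSs carried pSMAD1/5/9 somewhat more often than distal ones, mainly among weak peaks. Of the 2676 members within 2 kb of a TSS, 55.2% (53.3 to 57.1) carried pSMAD1/5/9, and of the 5901 distal members 49.3% (48.0 to 50.5), a difference of 5.97 points (3.69 to 8.24). Within deciles of SMAD4 signal, the difference was 4.87 points (2.86 to 6.88) by the Mantel-Haenszel method. In the strongest decile it was 2.82 points (−0.792 to 5.73) and in the weakest 15.3 points (9.21 to 21.9). The difference between these 2 deciles was itself 12.5 points (5.73 to 20.0). The result depended on the IDR threshold. With both lists limited to an IDR of 0.01, TSS and distal peaks differed by −0.0834 points (−3.55 to 3.35), and with only the pSMAD1/5/9 list limited by 2.03 points (−0.152 to 4.23).

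Among distal members, 51.0% of those in exons (46.2 to 55.8, n = 410), 47.7% of those in introns (45.8 to 49.5, n = 2690) and 50.6% of intergenic ones (48.7 to 52.4, n = 2801) carried pSMAD1/5/9. Intronic minus intergenic members gave −2.90 points (−5.53 to −0.250), and within deciles of signal −1.30 points (−3.58 to 0.985). By distance, the share was 55.3% for the 2327 summits less than 1 kb from a TSS, 51.1% for the 1119 between 50 and 100 kb, 44.2% for the 797 between 100 and 250 kb and 33.6% (28.0 to 39.7) for the 247 farther away. Within deciles, members less than 1 kb from a TSS lay 9.38 points (6.14 to 12.6) above those beyond 100 kb. Members also differed by their neighbourhood. With no other vehicle SMAD4 peak within 10 kb, 43.4% (42.0 to 44.8, n = 4784) carried pSMAD1/5/9, and with 3 or more, 69.1% (65.9 to 72.2, n = 819), a difference of 13.7 points (10.5 to 16.9) within deciles.

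The X chromosome stood below the autosomes. Of the 262 members on X, 84 carried pSMAD1/5/9 (32.1%, 26.7 to 37.9), against 51.7% (50.7 to 52.8) on the autosomes, which ranged from 44.1% to 57.5%. Within deciles of signal the autosomes were 15.0 points (10.0 to 20.0) higher. In the reverse direction, 22.8% (18.8 to 27.4) of the 368 pSMAD1/5/9 peaks on X had a vehicle SMAD4 peak, against 59.0% (57.9 to 60.2) on the autosomes. X held 3.05% of the SMAD4 members and 5.01% of the pSMAD1/5/9 peaks.

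Members that stayed in the SMAD4 list after BMP6 carried pSMAD1/5/9 more often than those that did not. After stimulation, 5979 of the members overlapped a SMAD4 peak, and of these 64.6% (63.4 to 65.8) carried pSMAD1/5/9. Of the 2598 that were no longer listed, 20.0% (18.5 to 21.6) did. The difference was 44.6 points (42.6 to 46.5) and, within deciles of vehicle signal, 25.6 points (23.3 to 28.0). In the strongest decile nearly all members stayed, 99.1%, and the shares were 94.4% and 62.5%, the latter of 8 peaks only. In the weakest decile 30.9% stayed, of which 35.1% (29.6 to 41.0) carried pSMAD1/5/9, against 8.95% (6.91 to 11.5) of those not listed again. In the SMAD4 list after BMP6, 64.5% of the 5852 also listed with vehicle and 24.5% of the 7008 others overlapped pSMAD1/5/9, a difference of 14.9 points (12.9 to 16.8) within deciles of BMP6 SMAD4 signal.

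**Figure D2:**
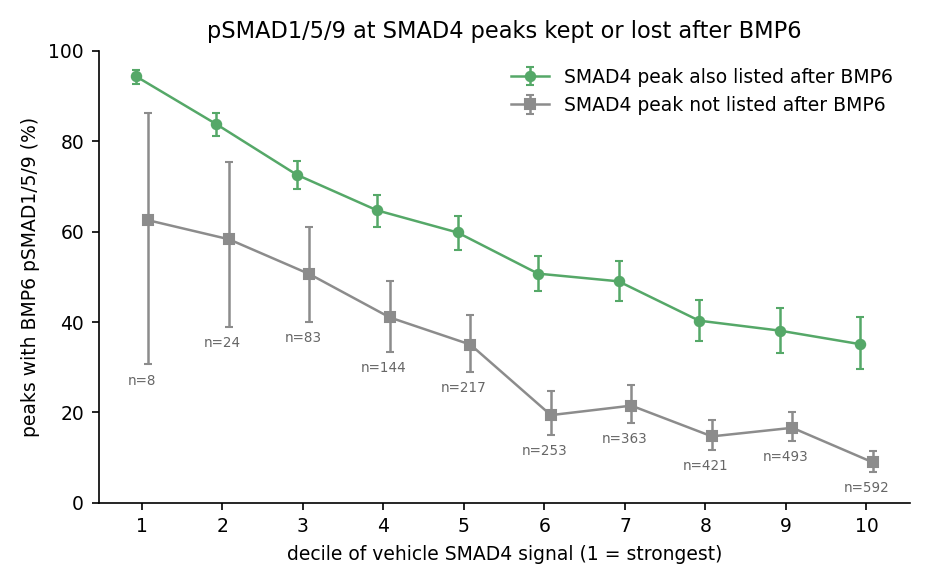
Share of vehicle SMAD4 peaks with BMP6 pSMAD1/5/9 (y, percent) in deciles of vehicle SMAD4 signal (x, 1 is the strongest), for peaks that were or were not also listed for SMAD4 after BMP6, with 95% Wilson intervals and the number of peaks no longer listed. Peaks still listed lie above the others in each decile, 35.1% against 8.95% in the weakest.

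Phosphorylated SMADs were also listed with vehicle at 865 of the members, 10.1%. Of these, 88.9% (86.6 to 90.8) carried pSMAD1/5/9 after BMP6. Without them, the relation to SMAD4 signal was still seen. Among the 7712 members without vehicle pSMAD1/5/9, 46.9% (45.8 to 48.0) carried it after BMP6, with 91.1% (88.4 to 93.2) in the strongest and 16.5% (14.2 to 19.2) in the weakest decile, and the AUC was 0.762. For size, the 949 strongest vehicle SMAD4 peaks, as many as the vehicle pSMAD1/5/9 list holds, overlapped BMP6 pSMAD1/5/9 in 93.3% (91.5 to 94.7) of cases, and the vehicle pSMAD1/5/9 peaks themselves in 84.7% (82.3 to 86.9). The SMAD4 peaks here are the strongest part of their list, whereas the pSMAD1/5/9 peaks are a whole list with its weakest peaks. These shares therefore do not rank vehicle SMAD4 against vehicle pSMAD1/5/9.

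Matched peaks were related in rank as well as in presence. For the 4385 members with pSMAD1/5/9, each was set beside the strongest pSMAD1/5/9 peak that it overlapped. Across these pairs the rank correlation was 0.505 and Pearson's r of the log10 signals 0.524, while the replicate columns of the same peaks had a rank correlation of 0.771 for SMAD4 and 0.759 for pSMAD1/5/9. Between 1 column of SMAD4 and 1 of pSMAD1/5/9, the rank correlation lay between 0.428 and 0.472 in the 4 combinations. It was 0.457 at TSSs and 0.528 at distal peaks. Within the strongest decile the rank correlation was 0.379 and within the second 0.186, and in the other deciles it lay between −0.0860 and 0.107. These values depend on the range of signal in a decile, 25685 to 163356 in the strongest and 5264 to 6175 in the ninth, and were not compared with each other. Signal moved with width in both lists, and the rank correlation between the widths of matched peaks was 0.349. The rank correlation of signals was 0.693 for the 3248 members that shared at least 50% of both peaks with pSMAD1/5/9. That rule keeps only pairs of similar width, so this value is not a closer measure of the relation. With signal divided by width, the rank correlation was 0.448 for the 4385 members.

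Of the 807 matched members in the strongest decile, 455 (56.4%, 52.9 to 59.8) had a partner in the strongest decile of pSMAD1/5/9 and 1 a partner in the weakest. The median rank of the partner was 601 in the strongest decile, 1604 in the second, 2249 in the third and 2602 in the fourth, and from the fifth decile on it lay between 3289 and 3951, near the middle of the list of 7339. The partners of weak members spread over most of the list, with quartiles of 1940 and 5229 in the weakest decile. Of the 146 matched members in the weakest decile, 10.3% (6.33 to 16.3) had a partner in the strongest decile of pSMAD1/5/9 and 7.53% (4.26 to 13.0) one in the weakest. The summits of matched peaks lay a median of 82.0 bp apart, and 124 bp in the weakest decile.

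**Figure D3:**
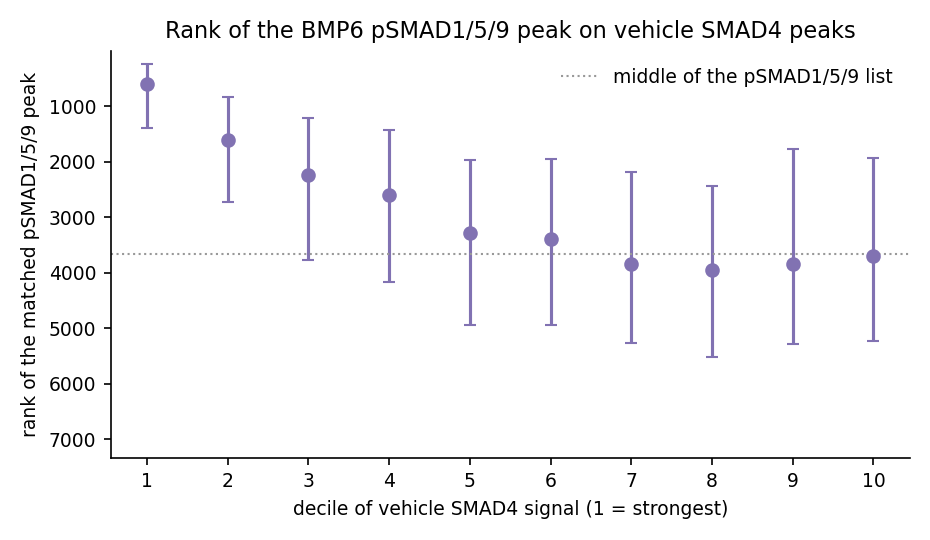
Rank of the strongest BMP6 pSMAD1/5/9 peak on each matched vehicle SMAD4 peak (y, rank 1 at the top is the strongest of 7339) in deciles of vehicle SMAD4 signal (x, 1 is the strongest). Points are medians and bars run from the lower to the upper quartile of the matched peaks. The median lies at 601 in the strongest decile and between 3289 and 3951 from the fifth decile on.

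Read from the other side, 4200 of the 7339 pSMAD1/5/9 peaks (57.2%, 56.1 to 58.4) lay on a member. In the strongest decile of pSMAD1/5/9 it was 96.2% (94.5 to 97.3) and in the weakest 23.9% (20.9 to 27.1). TSS peaks and distal peaks of pSMAD1/5/9 had a member in 57.3% and 57.2% of cases.

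Members were compared with active chromatin in general. Nearly all members, 8272 of 8577 (96.4%), overlapped a vehicle H3K27ac peak. Of the 305 that did not, 6 carried pSMAD1/5/9 (1.97%, 0.905 to 4.22), against 52.9% (51.9 to 54.0) of those with H3K27ac. Per the study's methods, the H3K27ac list was built from unfiltered peaks of the caller and the SMAD lists from filtered ones. How this affects the shares below was not tested. Among all 67790 vehicle H3K27ac peaks, 8.85% overlapped pSMAD1/5/9 after BMP6. With a SMAD4 member it was 55.9% (54.7 to 57.1) of 6691 peaks and without one 3.70% (3.55 to 3.85) of 61099, a difference of 52.2 points (51.0 to 53.4). Strong H3K27ac peaks are wider and held a member more often, 51.6% of the strongest decile and 0.325% of the weakest. Within deciles of H3K27ac signal the difference was 36.9 points (35.6 to 38.3). In the strongest decile, 69.8% (68.2 to 71.3) of the peaks with a member and 24.0% (22.6 to 25.5) of those without had pSMAD1/5/9. In the sixth decile it was 27.6% (20.5 to 36.1) of 123 and 0.646% (0.480 to 0.869) of 6656. In the weakest decile only 22 peaks held a member, of which 1 had pSMAD1/5/9.

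**Figure D4:**
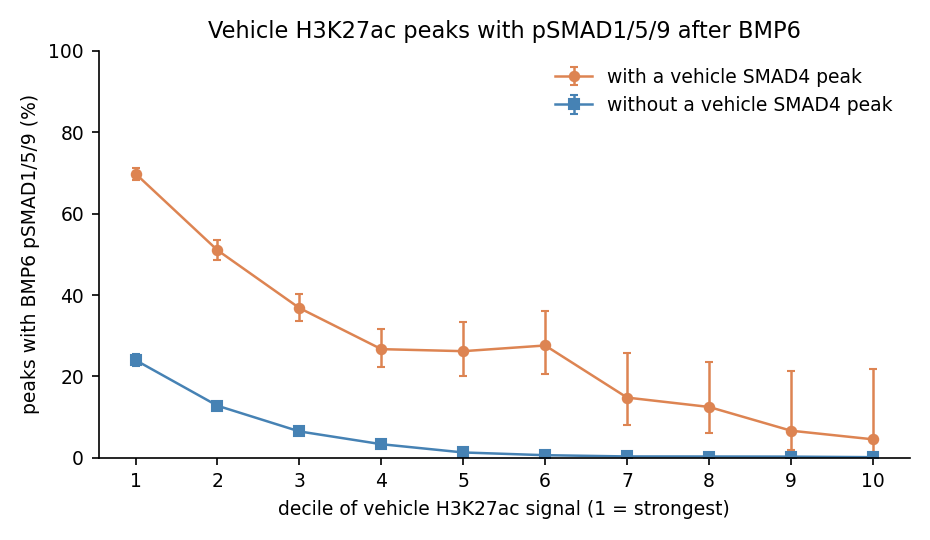
Share of vehicle H3K27ac peaks that overlapped a BMP6 pSMAD1/5/9 peak (y, percent) in deciles of vehicle H3K27ac signal (x, 1 is the strongest), for H3K27ac peaks with and without a vehicle SMAD4 peak, with 95% Wilson intervals. The peaks with SMAD4 lie above the others, 69.8% against 24.0% in the strongest decile.

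SMAD4 and H3K27ac strength were both related to pSMAD1/5/9 when they were crossed. Members in H3K27ac were divided into quintiles by the signal of that H3K27ac peak. In the strongest quintile, 79.5% (77.0 to 81.8) of members above the median SMAD4 signal and 39.6% (35.6 to 43.7) of those below it carried pSMAD1/5/9. In the weakest quintile, these shares were 50.1% (244 of 487) and 20.2% (236 of 1167).

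By gene, 6698 of the 21603 protein-coding genes had a member in the gene body or the 20 kb on either side. Of these, 4752 had a BMP6 pSMAD1/5/9 peak in the same region, 70.9% (69.8 to 72.0), against 29.3% of all genes and 10.5% (1570) of the 14905 genes without a member. The difference between genes with and without a member was 60.4 points (59.2 to 61.6). The share was 59.2% for the 3900 genes with 1 member, 80.5% for the 1480 with 2, 91.4% for the 685 with 3, 97.3% for the 300 with 4 and 99.7% for the 333 with 5 or more. A rise is given by counting alone, because 51.1% of all members carried pSMAD1/5/9 and each further member adds a chance. Regions of neighbouring genes can also share a member. Whether the rise exceeds this was not tested. By the strongest member of a gene it ran from 98.1% (97.1 to 98.8) of 1027 genes in the strongest decile to 35.3% (31.1 to 39.9) of 447 genes in the weakest. At 4155 genes (62.0%) pSMAD1/5/9 lay on a member itself and at 599 (8.94%) only at other sites. In 2 of the 4155, the pSMAD1/5/9 peak lay beyond the 20 kb. At the TSS alone, 58.5% (56.6 to 60.4) of 2702 genes with a member within 2 kb had pSMAD1/5/9 there, and 5.44% (5.13 to 5.78) of the others.

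Gene lists give these shares names. Counts in the lists are read against the 70.9% of all genes with a member that had pSMAD1/5/9. Of 27 BMP targets and feedback genes, 15 had a member and 15 of these had pSMAD1/5/9. The median rank of their strongest member was 1019, against 3317 over all genes with a member. This was not particular to BMP targets. The median was 839 for AP-1, 990 for myogenic and MuSC identity, 1292 for Notch and 1771 for housekeeping genes. It was 1913 for the TGF-beta list, 3898 for surface and niche and 5109 for BMP receptors and SMADs. Of the 44 members at BMP targets 77.3% carried pSMAD1/5/9, and of the 24 at housekeeping genes 79.2%. At Skil, the member of rank 2 had signals of 89681 and 71304 in the replicate columns and lay under the strongest of all pSMAD1/5/9 peaks. At the promoter of Smad7, which encodes an inhibitory SMAD, the member of rank 15 (48571 and 36389) lay under the pSMAD1/5/9 peak of rank 15, and at the promoter of Smad6, another inhibitory SMAD, rank 30 (45712 and 30307) lay under rank 90. These promoters stood near the top of both lists.

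The products of the Id genes block myogenic helix-loop-helix factors, and the ranks of their members were spread over the list. Id1 on chromosome 2 (152578165 to 152579544) had 6 members of ranks 630 to 6956, of which 4 carried pSMAD1/5/9. The strongest pSMAD1/5/9 peak at Id1, of rank 204, lay on the member of rank 1727, whose summit was 6478 bp upstream of the TSS. The weakest member there, of rank 6956 and 9044 bp upstream, lay under a pSMAD1/5/9 peak of rank 297, and a pSMAD1/5/9 peak of rank 266 downstream of the gene had no member. Id3 had 5 members of ranks 1032 to 3606, all with pSMAD1/5/9, up to rank 152 at the TSS. At Atoh8, a helix-loop-helix factor, 5 of 5 members carried pSMAD1/5/9, and the member of rank 487 in an intron lay under rank 24. In this list, 12 genes had no member, and 4 of them had pSMAD1/5/9 all the same: Id4 (rank 6843), Smad9 (rank 4559), Fst (rank 3768) and Gata2 (rank 6801), where no SMAD4 had been listed with vehicle.

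Genes for BMP receptors, ligands and SMADs stood lower. This list of 20 genes also holds Smad2 and Smad3 of the TGF-beta branch, and Smurf1 and Smurf2. Of the 20, 13 had a member, with a median strongest rank of 5109, and 6 of these had pSMAD1/5/9. The 6 were Bmpr2, Acvrl1, Eng, Smad2, Smad3 and Smurf1. The type II receptor gene Bmpr2 was the exception in strength, with a member of rank 157 at its TSS under a pSMAD1/5/9 peak of rank 1609. Eng, a coreceptor, had 5 members, of which 4 carried pSMAD1/5/9. The members at Bmpr1a (ranks 5109 and 6238), Smad5 (rank 6583) and Bmp6 (ranks 2128 and 3271) carried none.

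The Notch pathway holds receptors, ligands and their transcriptional targets, and in MuSCs it is known for maintaining the undifferentiated state. Of 25 of its genes, 19 had a member and 14 of these had pSMAD1/5/9. Among the Notch effectors, Hes1 on chromosome 16 (29884127 to 29886643) had 3 members upstream of its TSS, of ranks 1867, 5381 and 5976, and all lay under a single pSMAD1/5/9 peak of rank 361. Hey1 had 1 member, of rank 473 with signals of 23212 and 10129, at its TSS, under a pSMAD1/5/9 peak of rank 1048. At Heyl, the member 5225 bp upstream ranked 43 (27532 and 40229) and its partner 167, whereas the members of ranks 6241 and 6457 in the gene carried none and were not listed again after BMP6. Hes6 had 4 of 4 members with pSMAD1/5/9, the strongest of rank 90. These 4 effector genes all had pSMAD1/5/9 on a member, while Hes5 and Hey2 had neither.

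Among the Notch receptors and ligands, Notch3 had 4 of 4 members with pSMAD1/5/9, Jag2 had 3 of 3, and Notch1 and Notch2 had 1 of 3 each. The Notch3 members of ranks 1695, 5856 and 8387 lay 48154, 58141 and 49166 bp downstream of its TSS, past the end of the gene. The strongest member of Jag2, of rank 340, lay 8349 bp upstream of its TSS, in an exon of another gene. At Notch1, the member with pSMAD1/5/9, of rank 659, lay 58449 bp downstream of the Notch1 TSS and at the TSS of another gene, and the member at the Notch1 TSS itself, of rank 8289, carried none. Dll1 and Dll4 had 1 member each, of ranks 4382 and 3794, without pSMAD1/5/9. Rbpj, the DNA-binding partner of the Notch receptors, was the opposite case. Its member 1116 bp upstream of the TSS ranked 6631 (3479 and 2970), yet the pSMAD1/5/9 peak on it ranked 248. The coactivator gene Maml3 had 2 members, of ranks 1138 and 6221, and Dtx4 had 4 members of ranks 2853 to 5978, none of them with pSMAD1/5/9. Lfng, a modifier of Notch receptors, had 3 pSMAD1/5/9 peaks, the strongest of rank 2987, and no member.

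Of 23 myogenic and MuSC identity genes, 18 had a member and 16 of these had pSMAD1/5/9. Pax7, on chromosome 4 (139464373 to 139560839), had 19 members, 15 of them with pSMAD1/5/9. Of these, 6 stood among the strongest 306 of the list, and the strongest, of rank 10 (52014 and 36920) in an intron, lay under a pSMAD1/5/9 peak of rank 797, while the strongest pSMAD1/5/9 peak, of rank 48, covered 3 members around the TSS. Cdh15, which encodes the M-cadherin of MuSCs, had 3 of 3 members with pSMAD1/5/9, the strongest of rank 131 under rank 36. Myod1 had 2 of 2. The 4 members of Myf5, all of ranks 4421 to 7148 and shared with the neighbouring Myf6, carried none, and the region of Myf5 had no pSMAD1/5/9 peak. At Myog, the differentiation factor, the single member of rank 3152 carried none and the 4 pSMAD1/5/9 peaks, up to rank 577, lay on no member. Strong members without pSMAD1/5/9 were found at Mymk, which encodes the fusion factor myomaker (rank 159, signals of 33209 and 14125, in an intron), and at Mef2d (rank 624, in an intron), next to weaker members of the same genes that carried it.

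Of the 20 genes of the TGF-beta list, 16 had a member and 13 of these had pSMAD1/5/9. The list holds known targets and also Tgfb1, Tgfbr1, Tgfbr2 and Tgfbr3. Pmepa1, which encodes an inhibitor of receptor SMADs, had 6 of 7 members with pSMAD1/5/9, 4 of them in the strongest 307, and its pSMAD1/5/9 peaks reached rank 19. Tgfbi, an extracellular matrix gene, had a member of rank 631 and 2 weak ones, all without pSMAD1/5/9. Of 12 AP-1 genes, 9 had a member and 8 of these had pSMAD1/5/9, with a member of rank 297 under a pSMAD1/5/9 peak of rank 110 near Fos and one of rank 7376 under rank 463 at the TSS of Jund. Of 20 genes in the list of MuSC surface and niche, which also holds Cdkn1a, Cdkn1b and Cdkn1c, 15 had a member. Of these 15, 12 had pSMAD1/5/9. The member of rank 98 near Itga7, 12024 bp upstream and at the TSS of another gene, lay under rank 22. The 15 abundant housekeeping genes were added for comparison, and 9 of the 10 with a member had pSMAD1/5/9. Gapdh alone had 10 members, 9 with pSMAD1/5/9, and the strongest, of rank 25 (49533 and 29257), lay under rank 58. Its summit was 16443 bp downstream of the Gapdh TSS, past the end of Gapdh and in an exon of another gene.

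**Figure D5:**
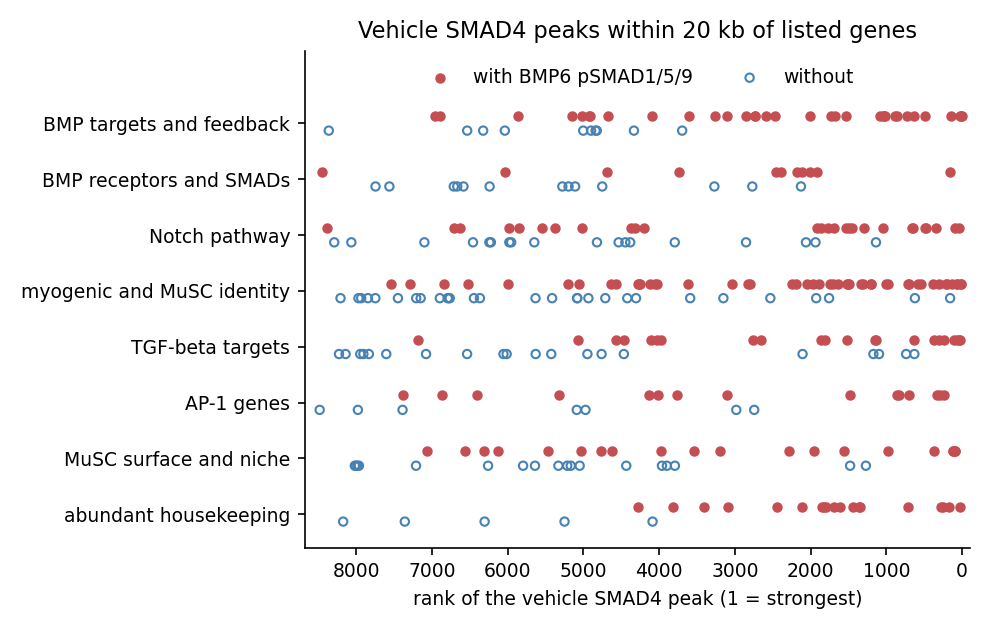
Ranks of the vehicle SMAD4 peaks (x, rank 1 at the right is the strongest of 8577) within 20 kb of the genes of 8 lists (y). Filled points are peaks with BMP6 pSMAD1/5/9 and open points peaks without. Open points are sparse at the strong end of the lists, with exceptions such as the member of rank 159 at Mymk.

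The 10 strongest members all carried pSMAD1/5/9. Their nearest TSSs belong to Arrdc3, Skil, Dpcd, Loxl1, Gadd45g, Cirbp, Cxxc5, Mok, Csf1 and Pax7, and the pSMAD1/5/9 peaks on them ranked from 1 at Skil and 2 near Cirbp to 2157 near Dpcd. All 10 were in H3K27ac, all 10 were listed again for SMAD4 after BMP6 and 7 also had pSMAD1/5/9 with vehicle. In the whole strongest decile these shares were 98.7%, 99.1% and 35.9%. The member near Arrdc3 was the strongest of the list in either column (91668 and 71688), with a summit 2351 bp downstream of the TSS, and its partner ranked 1288. With the SMAD4 summit required to lie within the pSMAD1/5/9 peak, 9 of the 10 kept a partner, and with 50% of both peaks shared 8 did.

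The strongest member without pSMAD1/5/9 ranked 12 and number 10 of its kind 235. Their nearest TSSs belong to Gpr6, Mtpap, Mpp7 (2 members), Plk5, Ppp2r2c, Plpp7, Gsg1l, Mymk and Nlgn4l. None lay at a TSS, 7 of 10 had fewer than 100 distinct 6-base words among the 195 in the 200 bp at the summit, 6 of 10 were in H3K27ac, none had pSMAD1/5/9 with vehicle, and all 10 were listed again for SMAD4 after BMP6. Of the 51 members of the strongest decile without pSMAD1/5/9, 48 were listed again and 10 lay outside H3K27ac. In the strongest decile as a whole, 29.5% lay at a TSS, 98.7% were in H3K27ac, 35.9% had pSMAD1/5/9 with vehicle and 99.1% were listed again. Being listed again was thus near the share of the decile, while lying in H3K27ac was less frequent.

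The 10 strongest pSMAD1/5/9 peaks on weak members ranked from 188 to 393 in their list, while the SMAD4 ranks were 4608 to 7356. Their nearest TSSs belong to Cibar2, Prps1, Acta1, Phka2, Rbpj, Defb42, Obsl1, Id1, Pqbp1 and Tmem47. The rule chose these peaks for the contrast of ranks. Of the 10, 5 lay at a TSS and 4 on X, and all 10 were in H3K27ac and were listed for SMAD4 after BMP6. Over all members, 31.2% lay at a TSS, 3.05% on X and 96.4% in H3K27ac, and 69.7% were listed after BMP6. The 10 strongest pSMAD1/5/9 peaks without any member ranked from 23, at the TSS of Timp1, to 444, at that of Stag2. The others lay near Olfml2b (2 peaks), Id1, Bcor, Eef1a1, Hlx, Spef1l and Sts. Of these 10, 4 were on X, 4 at a TSS and 3 had pSMAD1/5/9 with vehicle, and all 10 had a SMAD4 peak after BMP6 and a H3K27ac peak with vehicle. Of all 7339 pSMAD1/5/9 peaks, 5.01% were on X and 2483 at a TSS.

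Motifs were counted in windows of 200 bp at the member summits, on both strands. The GC-rich SMAD site (GGAGCC or GGCGCC) was found in 28.2% of all member windows and in 19.6% of windows at vehicle H3K27ac summits. It was more frequent in members with pSMAD1/5/9, 30.9% against 25.4% (difference 5.47 points, 3.57 to 7.37). The windows of these members were also richer in G and C, with a mean of 57.8% (SD 8.46, n = 4385) against 55.2% (SD 9.08, n = 4192), and the difference in the GC-rich site was 1.36 points (−0.465 to 3.19) within deciles of GC content and 4.51 points (2.32 to 6.69) within deciles of SMAD4 signal. The SMAD box CAGAC was found in 53.3% and 49.7% (difference 3.53, 1.42 to 5.65), with −0.120 points (−2.54 to 2.30) within deciles of SMAD4 signal and 4.32 points (2.20 to 6.44) within deciles of GC content. In distal members the SMAD box differed by 5.63 points (3.10 to 8.15), and by 2.27 points (−0.660 to 5.20) within deciles of SMAD4 signal. The palindrome GTCTAGAC was found in 1.15% of all member windows, against 0.260% at H3K27ac summits, and in 1.19% and 1.12% of members with and without pSMAD1/5/9 (difference 0.0647, −0.397 to 0.524). Within deciles of SMAD4 signal it was less frequent in members with pSMAD1/5/9, by −0.878 points (−1.37 to −0.387), and in windows of 100 bp by −0.587 points (−1.01 to −0.167). The GC-rich site followed after 5 bases by GTCT, the spacing of BMP response elements, occurred in 13 members with and 5 without pSMAD1/5/9 (0.296% and 0.119%, difference 0.177, −0.0244 to 0.398).

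Of 6 motifs of other factors, 3 were more frequent in distal members with pSMAD1/5/9. The E-box CAGCTG, bound by myogenic factors, was found in 43.5% of distal members with and 36.4% without pSMAD1/5/9 (difference 7.04 points, 4.54 to 9.53), and within deciles of SMAD4 signal the difference was 3.54 points (0.637 to 6.44). The AP-1 site TGACTCA or TGAGTCA was found in 21.3% and 17.2% (4.09, 2.08 to 6.10, within deciles 3.80, 1.46 to 6.14). The TEAD site GGAATG was found in 19.3% and 16.1% (3.13, 1.18 to 5.08, within deciles 2.30, 0.0451 to 4.55). In distal windows of 100 bp, the differences within deciles of SMAD4 signal were 2.29 points (−0.257 to 4.83) for CAGCTG, 1.26 (−0.505 to 3.03) for TEAD and 2.47 (0.582 to 4.35) for AP-1. The difference for CAGCTG within deciles of GC content was 4.03 points (1.52 to 6.54) in windows of 200 bp and 1.27 (−0.919 to 3.45) in windows of 100 bp. The E-box CACCTG differed by −1.71 points (−3.50 to 0.0943) in distal members, and was less frequent with pSMAD1/5/9 within deciles of SMAD4 signal (−2.60, −4.70 to −0.492) and of GC content (−2.80, −4.64 to −0.967). The RBPJ site differed by 0.0745 points (−1.42 to 1.57) and the NF1 site by 0.481 points (−2.01 to 2.97) in distal members. At TSSs the intervals of all 10 motifs included 0 in windows of 200 bp. In TSS windows of 100 bp, CACCTG differed by 1.57 points (−0.0498 to 3.16). Within deciles of SMAD4 signal it was more frequent there with pSMAD1/5/9 (2.50, 0.734 to 4.26), opposite in direction to distal members. Over all members, the intervals for the E-box CACCTG, the RBPJ site ATGGGAA or GTGGGAA, and the NF1 site TTGGC included 0. CAGAC can lie within other repeats and GGCGCC within CpG islands, and a match is a description of the sequence, not a binding site.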

How the data were processed

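CUT&Tag libraries of SMAD4, pSMAD1/5/9 and H3K27ac were made from cultured MuSCs with vehicle or BMP6, with 2 replicates per antibody and condition. The 2 libraries without a primary antibody were not analysed here. Per the study's methods, the authors aligned reads to GRCm39, ran JAMM on every replicate and joined replicates by IDR. The IDR step took filtered JAMM peaks for the SMADs and unfiltered ones for H3K27ac. The submitters' processing notes name Bowtie2 2.5.4, SAMtools 1.21 and bedtools 2.31.1. The deposited lists have 20 columns without a header, which hold the signal of each peak as a score of the peak caller, summed over both replicates and by replicate, and the IDR as −log10. In the deposited lists the IDR was at most 0.05. They hold no read counts. Per the study's methods, the authors brought the libraries of an antibody to equal depth by subsampling, and the reads behind a single peak are not known.

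Peaks were joined by an overlap of at least 1 bp, and TSS peaks were those within 2 kb of the start of a canonical GENCODE transcript of 21603 protein-coding genes on chromosomes 1 to 19 and X. Genes were given the body and 20 kb on either side. A member was set beside the strongest peak that it overlapped. Shares had Wilson intervals, differences Newcombe intervals, and differences within deciles of signal or GC content were Mantel-Haenszel differences with Sato's variance, all at 95%. The rank correlation and AUC are descriptions. Python 3.11.15, numpy 2.4.6, pandas 2.3.3, scipy 1.17.1 and pysam 0.24.0 were used, and the scripts were tested on simulated data.

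Genes named are those of 8 lists (162 of 163 found in the annotation, not Hprt) and the nearest TSSs of the 10 strongest SMAD4 peaks, the 10 strongest without pSMAD1/5/9, the 10 strongest pSMAD1/5/9 peaks without SMAD4 and the 10 strongest on a SMAD4 peak below the median signal. Sequences are of the first 3 members of these sets outside chromosome 18, less 1 that is not reported here, as is 1 marker list. Members, lists and tests were chosen with earlier results of these data known. The count of distinct 6-base words was added after these values were seen. Alternatives were stricter IDR, overlap, summit windows, signal per width, autosomes only, other gene regions, motif windows of 100 bp and 1 replicate column at a time.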

Additional observations from a re-analysis of the deposited data

How the results depend on the processing

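The difference between the strongest and the weakest decile of SMAD4 signal kept its direction and its side of 0 under the 14 alternatives run, between 55.8 points with signal divided by width and 79.6 with the pSMAD1/5/9 list at an IDR of at most 0.01. The difference between members listed and not listed after BMP6 did so under 11. The share of members with pSMAD1/5/9 was 59.0% with both lists at an IDR of at most 0.01, 35.2% with only the pSMAD1/5/9 list so limited, 37.9% with 50% of both peaks shared, 48.7% with the SMAD4 summit within the other peak and 41.1% with windows of 200 bp. In the same order without the summit rule, the AUC was 0.748, 0.803, 0.801 and 0.755, and it was 0.689 with signal divided by width. TSS minus distal was −0.0834 points with both lists at the stricter IDR and 2.03 with the pSMAD1/5/9 list alone, and in the weakest decile −0.845 (−10.2 to 9.34) with both. The rank correlation of matched peaks was 0.451 with the stricter pSMAD1/5/9 list, 0.693 with 50% shared, 0.591 with windows of 200 bp, 0.448 with signal divided by width and 0.577 for pairs of 1 peak with 1 peak. The share of genes was 62.6% for gene bodies (6.73% without a member) and 57.5% for a promoter region reaching 1.5 kb upstream and 0.5 kb downstream (5.29% without). In motif windows of 100 bp, the differences were 0.948 points for AP-1, 1.04 for TEAD and −0.235 for NF1 over all members, −0.0835 for the spaced GC-rich site and −0.430 for AP-1 at TSSs, and −0.184 for RBPJ and −0.704 for NF1 in distal members. The cause of these shifts was not tested.

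With 1 replicate column at a time, the share ranged from 50.8% to 51.0%, the difference between the strongest and the weakest decile from 72.4 to 78.3 points, TSS minus distal from 5.60 to 6.00, listed minus not listed from 44.3 to 44.6, the AUC from 0.762 to 0.785 and the rank correlation from 0.428 to 0.494. The peaks stayed those of the consensus lists, found in both replicates. These ranges therefore do not show what 1 replicate alone would list. Taking only the signal from 1 column gives no other value of the share, of TSS minus distal or of listed minus not listed, which do not use the signal, so the extent of 1 replicate was also used, an alternative added after seeing the data. No paired analysis was possible because each list is a consensus over both replicates and its replicate columns carry no replicate number. The precision of all values is limited by 2 replicates per list and by the unknown number of reads behind each peak.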

Other observations

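Windows of low sequence complexity were counted after the strongest members without pSMAD1/5/9 had been seen. Of the 195 possible 6-base words in the 200 bp at a summit, 99 members had fewer than 100 distinct ones. Of these, 18 carried pSMAD1/5/9 (18.2%, 11.8 to 26.9), against 51.5% (50.4 to 52.6) of the 8478 other members. In the strongest decile, such windows made up 17 of the 51 members without pSMAD1/5/9 (33.3%) and 9 of the 807 with it (1.12%), and 15 and 14 members had 5 or more SMAD boxes. Of the 17, 7 belong to the 10 strongest members without pSMAD1/5/9, which had been seen before the count. At vehicle H3K27ac summits 1.25% of windows were of this kind. Without these members, the strongest and the weakest decile differed by 78.4 points (75.3 to 81.1).

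On the X chromosome, 46 of the 262 members lay outside H3K27ac, and none of these carried pSMAD1/5/9 (0%, Wilson interval up to 7.71%). Among members in H3K27ac, 38.9% (32.6 to 45.5) of 216 on X and 53.3% (52.2 to 54.4) of 8056 on the autosomes carried it, a difference of 13.0 points (7.14 to 18.9) within deciles of SMAD4 signal.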
